A study of Zea mays with 47 samples.

Results

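After scaling between libraries, the 100 maize genes described here on average kept their leaf transcript level between 25 and 32°C and had a lower one at 38°C. They were chosen by rule from the measured values. Counts were scaled to CPM, the count as a share of the scaled library total, with edgeR's TMM factors, and log2(CPM + 1) was averaged over the libraries of each heat level. Of 17905 genes in the table, 14062 had a mean of at least 1 CPM, and 10122 of these differed by less than 0.4 on the log2 scale between 32 and 25°C. The 100 of these 10122 with the largest difference between 38 and 32°C are the members. The rule therefore used the level at all 3 heat levels averaged over lines, and the fall itself is a description with no test.

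The study sequenced leaf RNA, depleted of ribosomal RNA, of seedlings of 8 European inbred lines at 3 heat levels, each line and heat level with 2 replicates, each a pool of leaf pieces from 5 plants. The lines belong to the Flint (L043, L012, L023, L017) and Dent (S058, S067, S070, P040) pools, and L043, L012, S058 and S067 are heat tolerant while the other lines are susceptible, as the study's methods give them. Plants grew at 25°C, and in the runs for 32 and 38°C the chamber was warmed to those day temperatures some days after sowing. The heat levels were separate experiments in a growth chamber, so heat level and chamber run cannot be told apart. In all, 47 libraries were analysed, with 16 at 25°C, 15 at 32°C (line L017 had 1 library at 32°C) and 16 at 38°C.

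In leaves of a C4 grass such as maize, light-harvesting proteins feed the photosystems, and their genes respond to light, the clock and stress. Strong heat slows photosynthesis and growth and shifts expression toward chaperones, while a milder rise in temperature is often tolerated. Lipoxygenases oxygenate fatty acids and 12-oxophytodienoate reductases act on oxygenated ones, the source of jasmonates and related wound and defence signals.

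Library totals were 7747441 to 20642205 counts at 25°C, 8059394 to 17529195 at 32°C and 3687700 to 13912372 at 38°C. The 11 genes that each held over 1% of all counts together took a median of 83.2% of a library at 25°C, 72.7% at 32°C and 57.9% at 38°C, so the TMM factors differed between heat levels, with medians of 0.575, 0.881 and 1.86. Mesophyll and bundle sheath marker genes were detected in every library, and the root marker stayed at or below 4.28 CPM. At 38 against 32°C, 1 of 4 mesophyll markers, 2 of 4 bundle sheath markers (list median -0.68) and the 1 phloem marker (-0.99) were lower in the edgeR fit. So was 1 of 3 dividing cell markers (list median 0). The root marker (1.28) and 1 of 3 secondary wall markers (list median -1.6) were higher. The part of these cell types in the members' fall was not tested. P040 at 32°C, replicate 2, did not match its heat level and correlated best with the 38°C libraries of the other lines (r = 0.182, against -0.0805 with their 32°C libraries), and the other 46 of 47 libraries matched their own. Over line differences, the 32°C replicate 1 libraries labelled S070 and P040 resembled each other's line (r of 0.636 to P040 and -0.0423 to S070 for the first, 0.464 to S070 and -0.112 to P040 for the second), and 27 of 31 libraries at 25 and 32°C matched their own line. The other 2 that did not were P040 at 25°C, replicate 1, and P040 at 32°C, replicate 2. Some results that rest on these libraries are also given without them, and all other values of P040 and S070 include them. Values from the P040 replicate 1 library at 32°C alone rest on a library that resembled S070. They may therefore compare P040 at 38°C with another line at 32°C.

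Over the libraries, the members had a median difference of -1.10 on the log2 scale between 38 and 32°C (range -2.66 to -0.96), and a median of 0 was found for the 10122 eligible genes. The median difference between 32 and 25°C was -0.07 for members and -0.01 for eligible genes. All 100 members also had a lower 38°C level in edgeR's quasi-likelihood fit at an adjusted p under 0.05, beside 16.4% of all 17905 genes. They were chosen for the largest falls in these same libraries, so neither the direction nor this count is a test of the fall. At the milder step, which the rule also limited, 8 members were lower and 6 higher at 32 than at 25°C, beside 17.9% and 20.1% of all genes. The members just inside the limit were GRMZM2G117497, GRMZM2G366313 and GRMZM2G121990, with falls of 0.9652, 0.9586 and 0.9555, and just outside lay GRMZM2G026807, GRMZM2G385635 and GRMZM2G046284 with falls of 0.9552, 0.9515 and 0.9513, so no gap separates the list from the genes next to it.

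The size of the fall depends on how libraries are scaled. With plain CPM and no TMM factors the median of all genes rose by 0.82 between 32 and 38°C, the members had a median change of -0.19, and 81 of 100 members were lower. Relative to that shift of all genes, every member was lower (-2.45 to -0.73, median -1.01). Between 25 and 32°C the members' median change under plain CPM was 0.63, beside 0.48 over all genes. The flat milder step thus also depends on the TMM scaling. The members' summed share of all counts had a median of 4.73% at 25°C, 7.40% at 32°C and 7.43% at 38°C. The 11 members that averaged at least 1000 CPM make up most of this sum, so it does not describe the other members. For the members as a set, what fell was the level relative to the median of all genes. In bulk leaf samples, fewer cells of a type and less RNA per cell cannot be told apart.

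**Figure D1:**
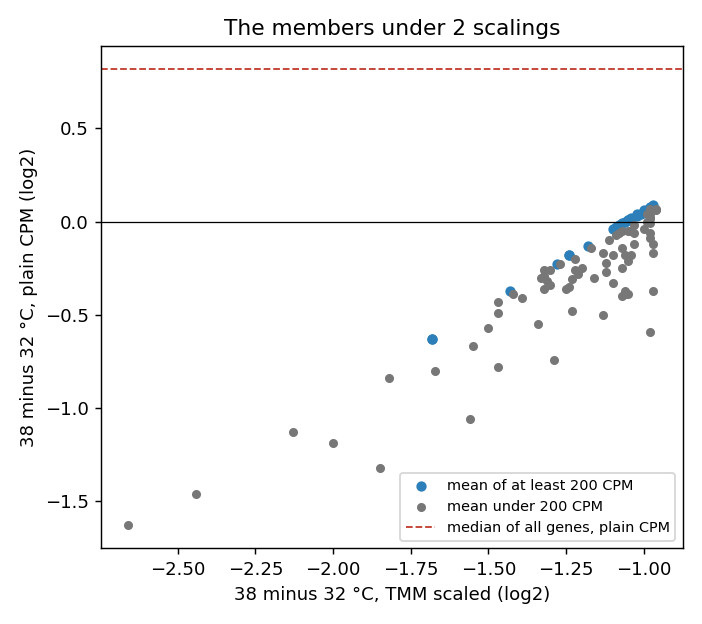
Change between 38 and 32°C (38 minus 32, log2) of each member with TMM scaling (horizontal axis) and with plain CPM (vertical axis); blue points have a mean of at least 200 CPM, grey points a lower mean, and the dashed line is the median of all genes under plain CPM. Members with the larger falls stayed below 0 under plain CPM, those near -1 did not all do so, and every member lies below the dashed line at 0.82.

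The largest fall was that of GRMZM2G172214, annotated as a CBS domain protein, a domain that binds adenosine-containing ligands in many proteins. Its lowest, median and highest values were 66, 114 and 256 CPM at 25°C, 47.3, 174 and 298 CPM at 32°C, and 9.84, 22.1 and 68.1 CPM at 38°C. The 38°C libraries lay below the 32°C median in 16 of 16 cases and below the lowest 32°C library in 14, and that lowest library was P040 replicate 2. The mean at 38°C was 0.157 of the mean at 32°C, and all 8 lines had a lower level at 38°C (-3.24 to -2.25).

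GRMZM2G471805, annotated as a tumor-related protein, followed with a median of 42.2 CPM at 25°C, 55.1 at 32°C and 8.09 at 38°C, and ranges of 21 to 100, 16.4 to 117 and 4.16 to 27.2 CPM. Its 38°C values lay below the lowest 32°C value in 13 of 16 libraries. The lines differed little in the fall of both genes, with SDs of 0.33 and 0.31 on the log2 scale over 8 lines.

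The putative metacaspase gene GRMZM2G132238 encodes a member of a cysteine protease family that takes part in programmed cell death in plants. It had 26.9, 66.8 and 137 CPM at 25°C, 12.6, 56.6 and 102 CPM at 32°C and 2.41, 10.5 and 24.1 CPM at 38°C (lowest, median and highest). The 38 and 32°C ranges overlapped only up to the P040 replicate 2 library, and without it no 38°C library reached any at 32°C. Its fall ran from -3.38 in S070 to -1.06 in P040. From the P040 replicate 1 library at 32°C alone, which resembled S070, it was -1.82.

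Hb2 (GRMZM2G168898), a non-symbiotic haemoglobin that binds oxygen and nitric oxide, was a low gene. Its lowest, median and highest levels were 1.26, 4.72 and 10.1 CPM at 25°C, 1.33, 4.97 and 10.6 CPM at 32°C and 0.04, 0.52 and 2.62 CPM at 38°C. Its groups overlapped, with 13 of 16 libraries at 38°C below the lowest at 32°C. The next member by fall, GRMZM2G150363, carries no annotation and had medians of 17.5, 10.7 and 2.45 CPM at 25, 32 and 38°C.

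Regulatory proteins were among the named members. The RADIALIS gene GRMZM2G114503 encodes a small MYB-related protein whose relative in snapdragon shapes flower symmetry. It had medians of 34.8 CPM at 25°C, 35.5 at 32°C and 8.04 at 38°C. Its range was 3.8 to 25.4 CPM at 38°C against 8.04 to 57.3 CPM at 32°C. LOL3 (GRMZM2G120079) belongs to the LSD1-like zinc finger proteins, which in Arabidopsis control cell death. Its medians were 85.4, 76.8 and 29.2 CPM at 25, 32 and 38°C, and its 38°C range of 10.5 to 61.2 CPM met the 32°C range of 16.8 to 120 CPM only in the P040 replicate 2 library. MNB1B (GRMZM5G834758), also listed as HMG13, is a high mobility group protein that binds DNA in chromatin. Its medians were 55.8, 55.5 and 20.6 CPM, it fell in all 8 lines, and its fall had an SD over lines of 0.25 on the log2 scale. MYBR47 (GRMZM2G117497), a MYB-related factor, was lower at 38°C in 7 lines and averaged 2.09 ± 2.21, 3.66 ± 4.24 and 1.03 ± 1.11 CPM at 25, 32 and 38°C (SD, n = 16, 15 and 16), so that its SD over libraries was as large as its mean.

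Genes of light use came next. The light-harvesting chlorophyll a/b gene lhcb7 (GRMZM2G402936) averaged 465 ± 115 CPM at 25°C, 622 ± 235 at 32°C and 250 ± 62.4 at 38°C. Its 38°C values (138 to 331 CPM) lay below those at 32°C (154 to 1050 CPM) except for the P040 replicate 2 library. The change of lhcb7 was 0.07 in P040 and -2.33 to -0.82 in the other lines. From the P040 replicate 1 library at 32°C alone, which resembled S070, it was -0.84. Of the 7 light-harvesting genes measured, 6 were lower at 38 than at 32°C in the edgeR fit, with a list median of -1.82 beside 0.06 over all genes, and 6 were higher at 32 than at 25°C, lhcb7 among them. Of the light-harvesting genes, lhcb7 alone met the rule, and its rise at 32°C (0.34) came near the limit of 0.4. The largest fall of the group, that of cab48 (GRMZM2G120619), was -7.34 with 24.4 ± 48.8, 324 ± 206 and 3.48 ± 4.91 CPM at 25, 32 and 38°C. The blue light receptor gene phot1 (GRMZM2G001457), also listed as nph1, had medians of 58.3, 60.8 and 27 CPM, and its 38°C values of 10.4 to 44.5 CPM overlapped those of 34.5 to 100 CPM at 32°C through the P040 replicate 2 library alone. It fell in all 8 lines, by -1.82 to -0.67. The smallest fall was that of P040, with -1.07 from its replicate 1 library at 32°C alone, which resembled S070.

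Oxylipin metabolism was represented by 3 members. The 12-oxophytodienoate reductase gene opr6 (GRMZM2G068947) averaged 13.9 ± 9.41 CPM at 25°C, 13.0 ± 6.61 at 32°C and 4.91 ± 2.55 at 38°C, and was lower at 38°C in all 8 lines (-2.15 to -0.52). The lipoxygenase gene lox11 (GRMZM2G009479) averaged 6.15 ± 2.98, 5.98 ± 2.48 and 2.62 ± 1.5 CPM, with a fall in all 8 lines of -1.71 to -0.26. The lipoxygenase gene lox6 (GRMZM2G040095) differed more between lines than between heat levels and averaged 63.3 ± 43.6, 51.6 ± 44.1 and 26.2 ± 27.1 CPM. Its line means ran from 10.1 CPM in L023 and 12.5 CPM in S067 to 87 CPM in S058 (edgeR, adjusted p = 6.57e-08). The 32°C replicate 1 libraries labelled S070 and P040 held 71.6 and 7.89 CPM of lox6, while their replicate 2 libraries held 6.79 and 117 CPM, so the lox6 changes of these lines (-1.65 and 0.88) rest on the libraries that went against their labels. Of the 18 oxylipin and jasmonate genes measured, 5 were lower, 3 higher and 10 not called at 38 against 32°C, with a list median of -0.09, so most of the list was not lower with the 3 members. Those that rose included lox3 (GRMZM2G109130, 2.88) and aos1 (GRMZM2G067225, 2.21), allene oxide synthase being the enzyme that follows lipoxygenase in jasmonate synthesis.

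The plastid dicarboxylate transporter gene pDCT2 (GRMZM2G086258) had medians of 21.2, 34 and 13.8 CPM at 25, 32 and 38°C. Its groups overlapped widely, and its change ran from -2.03 in L012 to 0.33 in P040. From the P040 replicate 1 library at 32°C alone, which resembled S070, it was -0.88. A putative receptor-like kinase with a DUF26 domain (GRMZM2G076943) had medians of 4.36, 3.91 and 1.25 CPM, and ZIP4 (GRMZM2G111300) had medians of 4.75, 3.65 and 1.28 CPM. Both were lower at 38°C in all 8 lines.

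**Figure D2:**
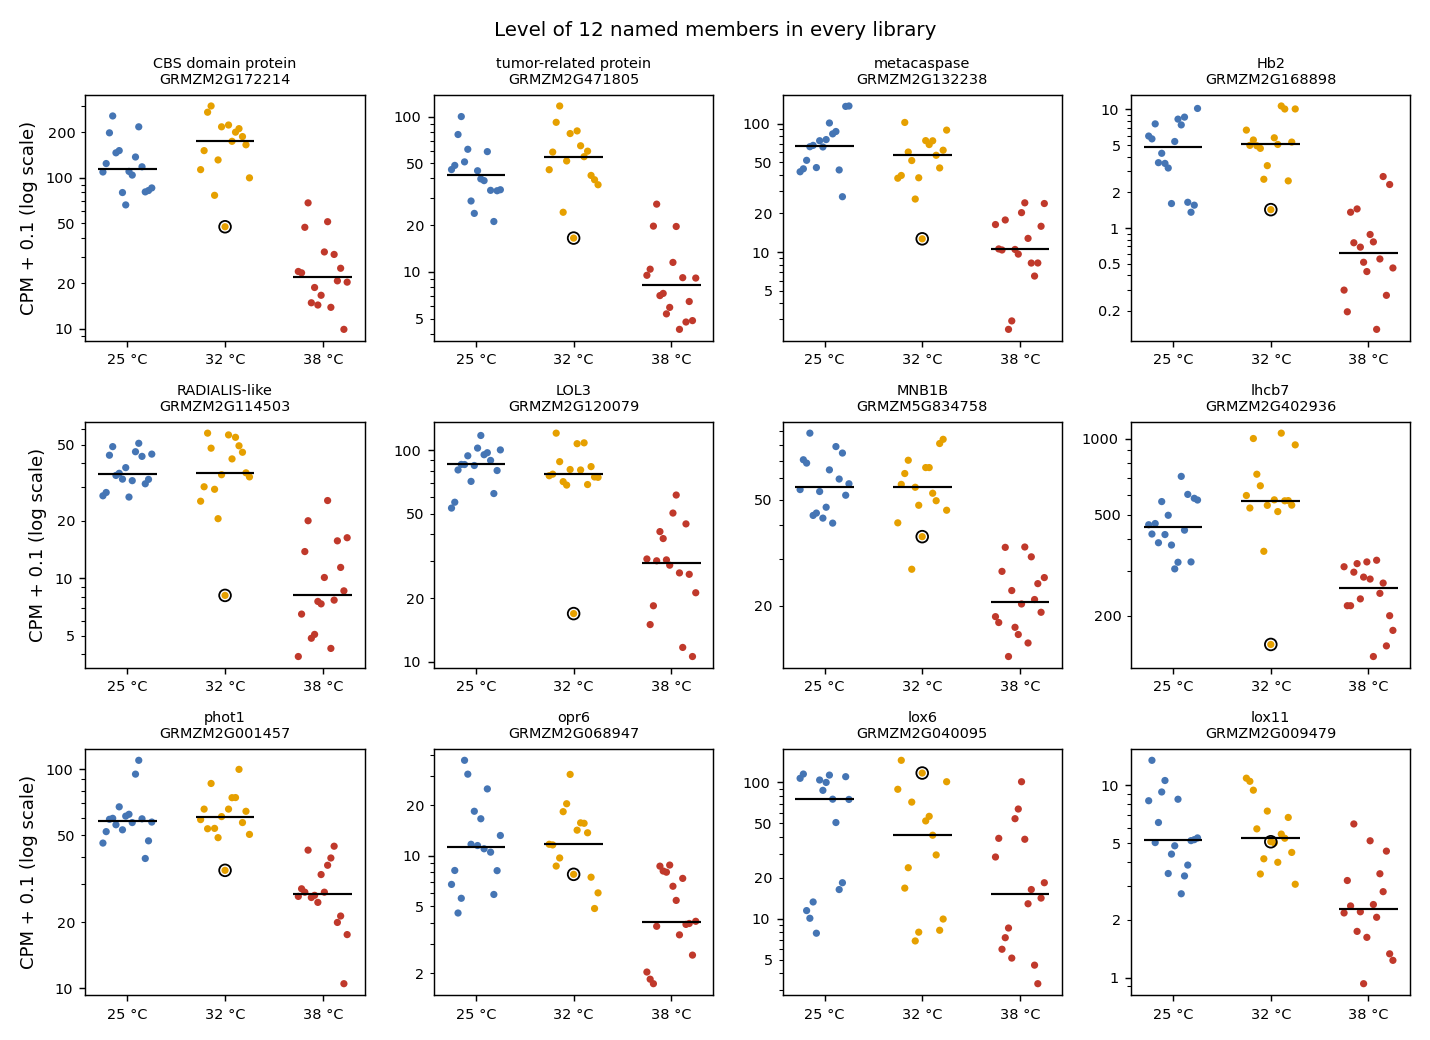
Level in CPM (plus 0.1, log scale) of 12 named members in each of 16 libraries at 25°C, 15 at 32°C and 16 at 38°C; black lines are medians and the ring marks P040 at 32°C, replicate 2. In most panels the values at 25 and 32°C share a range and those at 38°C lie below it, while the ringed library lies near the 38°C values, lox6, lox11 and opr6 being exceptions or less clear.

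The rest of the 12 largest falls belong to genes of no known name. GRMZM2G018627 and GRMZM2G414192 had medians of 178 CPM each at 38°C, against 604 and 606 CPM at 32°C, and their values correlated at r = 0.9999 over 47 libraries, so their reads may be split between copies or overlapping models and they count as 1 measurement. GRMZM5G877423, GRMZM2G045027, GRMZM2G144346 and GRMZM2G104572 had medians of 3.58, 0.765, 3 and 4.99 CPM at 38°C, against 14.2, 4.1, 13 and 16.7 CPM at 32°C. GRMZM2G144346 was lower in 7 lines, and the others in all 8. The change of GRMZM2G144346 in P040 was 0.01, and -0.76 from the P040 replicate 1 library at 32°C alone, which resembled S070.

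Every 38°C library lay below every 32°C library for 2 members, GRMZM2G109418 and GRMZM2G574782, beside 0.0924% of the 14062 genes with at least 1 CPM. GRMZM2G109418 ranged from 85.1 to 187 CPM at 38°C against 230 to 478 CPM at 32°C. GRMZM2G574782 ranged from 7.7 to 15.3 CPM at 38°C against 15.6 to 39.6 CPM at 32°C, so a small step separates its groups. Without the P040 replicate 2 library at 32°C the number was 16, beside 0.391% of genes, and it then included the CBS domain gene, the metacaspase gene, LOL3, phot1 and lhcb7.

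The members were also more abundant than the genes the rule could have taken. Their median mean level was 22.8 CPM, against 3.15 CPM for the eligible genes. 24 members averaged at least 200 CPM, as did 0.968% of eligible genes, and 11 averaged at least 1000 CPM, as did 0.405%. The added 1 in log2(CPM + 1) damps the differences of low genes, and its part in the members' abundance was not tested. CPM is not set per transcript length. Of the 24 most abundant members, 5 matched an entry of the RefSeq maize annotation, against 53 of the other 76. Over all genes 69% matched, and over the members 58%. A group of 8 abundant members with averages of 413 to 14200 CPM had nearly equal patterns (SD of the log2 ratio under 0.1). A pair of abundant members and the pair named above did so too, and 91 members remain with 1 kept of each group. This number depends on the limit, and GRMZM2G047968 and GRMZM2G083128 are both kept although they matched the same RefSeq entry. With 1 gene kept of each group the median change was -1.11. In line P040 the 24 abundant members had a median change of -0.12 and 16 were lower at 38°C, while in the other 7 lines the median lay between -1.75 and -0.78. With the P040 replicate 1 library at 32°C alone, which resembled S070, the median was -0.73 and all 24 were lower.

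All 8 lines had members lower at 38 than at 32°C, in unlike numbers. The count was 99 of 100 in L043, 100 in L012, 99 in L023, 97 in L017, 99 in S058, 100 in S067, 95 in S070 and 74 in P040. Median changes were -0.95 in L043, -1.56 in L012, -1.16 in L023, -1.35 in L017, -1.30 in S058, -1.54 in S067, -0.94 in S070 and -0.47 in P040, and medians over all genes were between -0.02 and 0.02. Since the rule used the mean over lines, these values are a description. 67 members were lower in all 8 lines, as were 7.91% of the 14062 genes, and 4 members were lower in 6. P040 gave -0.93 with 94 members lower from its replicate 1 library at 32°C alone, which resembled S070. From replicate 2 alone it gave -0.06 with 52 lower. With the 32°C library labelled S070 replicate 1, which resembled P040, in their place the values were -0.90 and 95.

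The step that the rule holds flat on average was not flat in each line. Between 32 and 25°C the number of members changing by less than 0.4 was 66 in L043, 76 in L012, 65 in L023, 54 in L017, 71 in S058, 48 in S067, 49 in S070 and 27 in P040, and 4 members stayed under the limit in all 8 lines. Over all genes the shares were 57.9%, 60.5%, 58.6%, 56%, 68.2%, 63.7%, 59.9% and 53.1% in the same lines, so the members of S067, S070 and P040 were flat less often than all genes and L017 lay near that share. The median change at this step was 0.34 in S067, with 43 members above the limit, and -0.39 in S070, with 49 members below it. In P040 it was -0.64, with -0.01 from replicate 1 alone (the library that resembled S070) and -1.11 from replicate 2 alone.

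**Figure D3:**
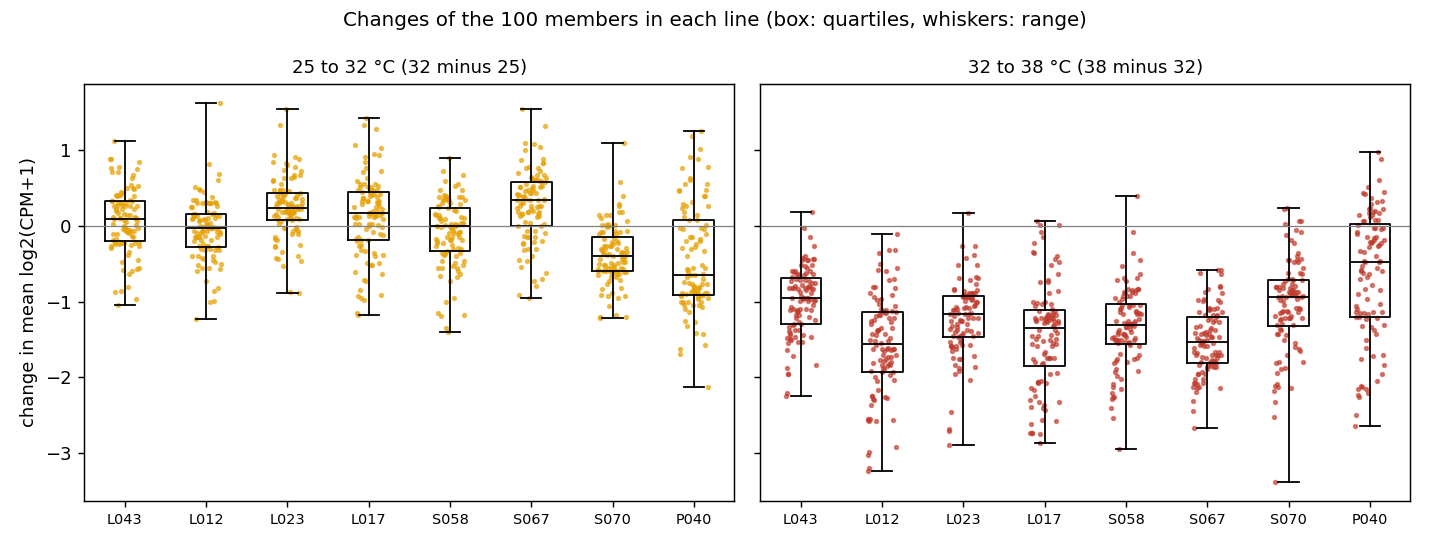
Change of each of the 100 members in each inbred line, in mean log2(CPM + 1), for 32 minus 25°C (left) and 38 minus 32°C (right); Flint lines are on the left and Dent lines on the right of each panel, boxes show quartiles and whiskers the range. The left panel scatters about 0 with S070 and P040 below it and S067 above it, and in the right panel all boxes but that of P040 lie below 0, while the whiskers of 6 lines reach above 0, with 26 members not lower in P040, 5 in S070, 3 in L017 and 1 each in S058, L043 and L023.

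**Figure D4:**
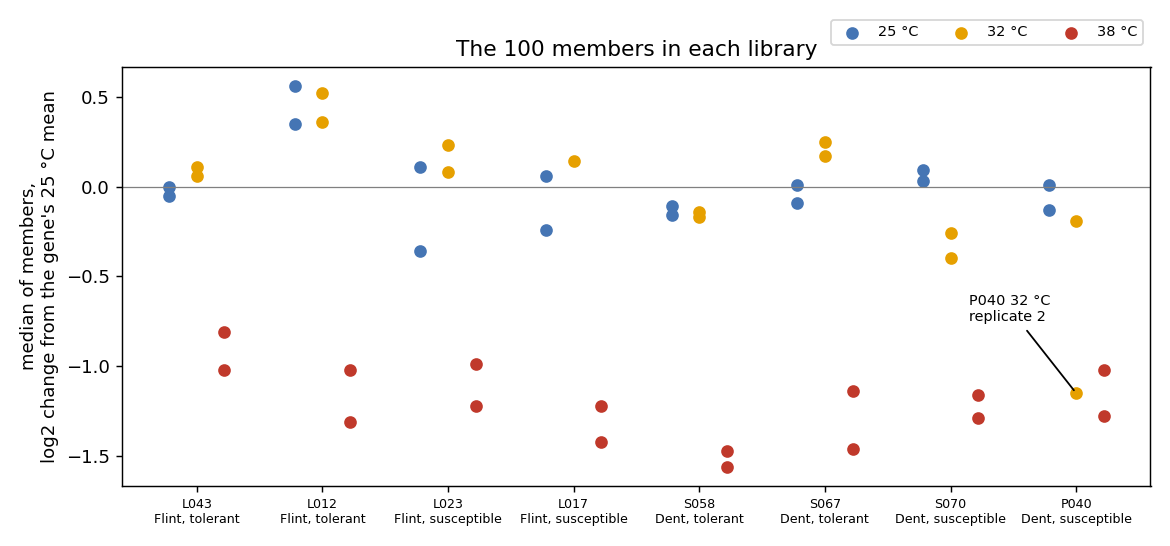
Median over the 100 members of the log2 difference from each gene's mean at 25°C, for each library; colours mark heat levels and columns the lines. The 38°C libraries lie between -1.56 and -0.81, and 1 library at 32°C, P040 replicate 2, lies with them at -1.15.

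The rule was next applied to 7 lines and the chosen genes were read in the line left out. In the line left out, the number lower at 38 than at 32°C was 99 of 100 in L043, 97 in L012, 99 in L023, 96 in L017, 96 in S058, 99 in S067, 94 in S070 and 65 in P040, beside 48.1% to 51.8% of all genes in the same lines. Both a lower level at 38°C and a change of less than 0.4 at the milder step held for 59, 64, 59, 50, 64, 44, 38 and 17 genes of the 100 in the same lines, beside 26.1% to 35.6% of all genes. Without the P040 replicate 2 library, 85 of the genes chosen on the other lines were lower in P040. Genes chosen on replicate 2 libraries were lower in replicate 1 for 99 of 100, and those chosen on replicate 1 were lower in replicate 2 for 100, the replicates sharing lines and chamber runs. The flat step alone held for 59, 65, 60, 50, 65, 44, 39 and 19 genes of the 100 in these lines, in the same order, beside 58%, 60.7%, 58.8%, 56.1%, 68.5%, 63.9%, 60.1% and 53.2% of all genes. The lower level at 38°C thus recurred in lines the choice did not use, though all lines shared the chamber runs and the scaling. The share with a flat step was above that of all genes by a few genes in L043, L012 and L023 and below it in the other lines.

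Whether the fall differed between the 8 lines was tested in all genes with edgeR. The difference between lines passed an adjusted p of 0.05 in 4 members, beside 1.68% of all genes, and an unadjusted p of 0.05 in 50 members, beside 18.4%. The count of 4 became 31 with DESeq2, beside 6.41% of all genes, and 47 without the 3 other libraries that resembled another line (P040 at 25 and 32°C, replicate 1, and S070 at 32°C, replicate 1), beside 9.60%. It was 1 to 43 with 1 of 30 libraries at 32 or 38°C left out, the 43 without P040 at 32°C, replicate 1, beside 8.04%. The calls over all genes rose with those of the members. GRMZM2G111903 (adjusted p = 0.0165) had 0.4 and 0.539 CPM in L012 at 38°C, against 5.86 and 6.26 CPM at 32°C, while P040 had 13.1 and 14.6 CPM at 38°C, against 9.07 and 16.1 CPM at 32°C. Its change was -2.26 in L012, -2.14 in S070 and 0.18 in P040, and L043 had 3.06 and 7.01 CPM at 38°C, against 4.16 and 5.44 CPM at 32°C.

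GRMZM2G013798 (adjusted p = 0.032) and GRMZM5G852325 (adjusted p = 0.0434) are abundant genes without a name and had a similar order of lines. GRMZM2G013798 had 1680 and 2040 CPM in L012 at 38°C, against 7000 and 7130 CPM at 32°C, and 2190 and 3000 CPM in P040 at 38°C, against 3150 and 1770 CPM at 32°C. Its change was -1.93 in L012, -0.45 in S070 and 0.12 in P040. GRMZM5G852325 changed by -1.70 in S067, -0.47 in S070 and 0.08 in P040. From the P040 replicate 1 library at 32°C alone, which resembled S070, the P040 changes were -0.30 for GRMZM2G013798 and -0.31 for GRMZM5G852325. Without the P040 replicate 2 library at 32°C the adjusted p was 0.0416 for GRMZM2G013798 and 0.065 for GRMZM5G852325, and without all P040 libraries it was 0.116 and 0.171 (edgeR). GRMZM2G027479 (adjusted p = 0.0462) had 22.2 and 22.1 CPM in S070 at 38°C, against 15.3 and 23.4 CPM at 32°C, and 9.26 and 7.37 CPM in L017 at 38°C, against 66.3 CPM at 32°C. Its change was 0.22 in S070 and -2.86 in L017, and without S070 its adjusted p was 0.289 (edgeR).

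**Figure D5:**
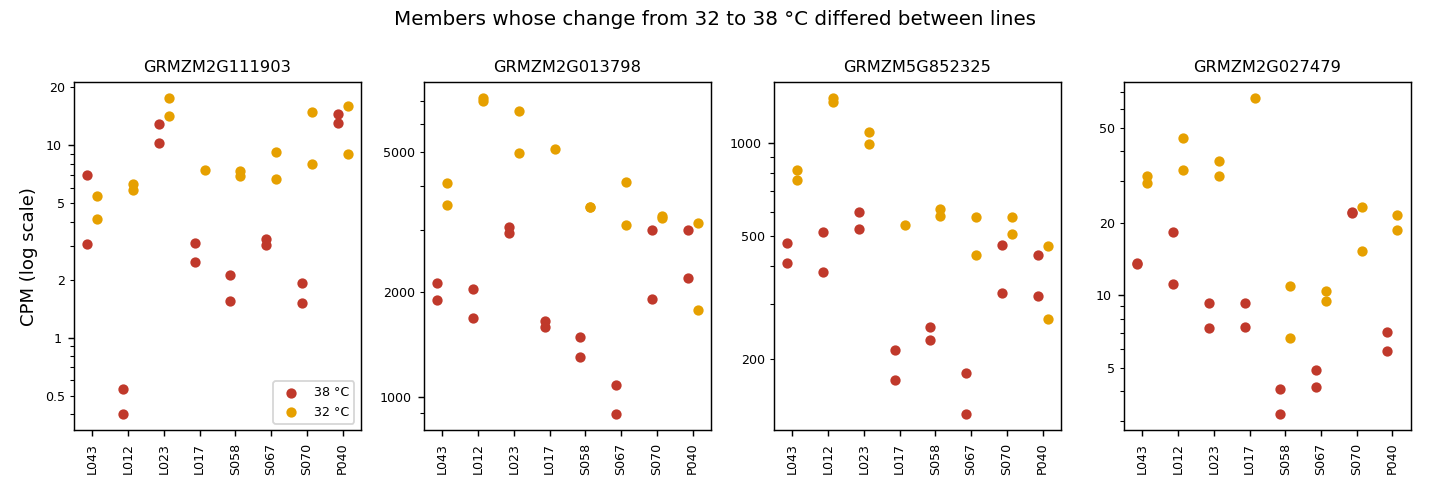
Level in CPM (log scale) of the 4 members whose change differed between lines, at 38°C (red) and 32°C (orange) in each library; Flint lines are on the left, Dent lines on the right. The 38°C points lie far below those at 32°C in L012 for GRMZM2G111903 and in L017 for GRMZM2G027479, and overlap them in P040 for GRMZM2G111903.

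No member passed the adjusted threshold for a fall that differs by pool or by tolerance class. The difference between Flint and Dent lines passed in 0 members, with a lowest adjusted p of 0.104, beside 0.145% of all genes (edgeR), and at an unadjusted p of 0.05 in 14, beside 14.2%. DESeq2 called 0 members and 179 genes. The Flint minus Dent difference in the change had a median of -0.14 over members and 0.07 over all genes, with 64 of 100 members below 0. The lowest p belonged to GRMZM5G854138, which changed by -2.56 to -1.12 in the Flint lines and by -0.85 to 0.40 in the Dent lines.

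Between tolerant and susceptible lines, 0 members and 0 genes passed the adjusted threshold (edgeR, lowest adjusted p 0.585 among members), and at an unadjusted p of 0.05 there were 27 members, beside 6.84% of all genes. DESeq2 called 0 members and 2 genes. The tolerant minus susceptible difference had a median of -0.32 over members and 0.05 over all genes, and 64 members were below 0. P040 is a susceptible line, and without the P040 replicate 2 library the number at an unadjusted p of 0.05 was 17, beside 5.37% of all genes, and without all P040 libraries 8, beside 5.07%. Permuting the 8 lines in a two-sided exact test cannot give less than p = 0.0286. At that value stood 4 members for pool, beside 4.98% of genes, and 1 member for tolerance, beside 1.83%.

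Levels over all heat levels differed between lines for 76 of 100 members at an adjusted p of 0.05, beside 57.4% of all genes (edgeR). The 4 smallest p belonged to GRMZM2G104572, GRMZM2G042664, GRMZM5G854138 and GRMZM5G852325. GRMZM2G104572 averaged 35.5 CPM in L012 and 6.04 to 16.6 CPM in the other lines (adjusted p = 9.15e-11, edgeR). GRMZM2G042664 averaged 4.14 to 6.9 CPM in the Flint lines and 1.29 to 2 CPM in the Dent lines (adjusted p = 1.28e-10, edgeR). GRMZM5G854138 averaged 19 to 80.6 CPM in Flint lines and 12.6 to 18.7 CPM in Dent lines (adjusted p = 1.89e-08, edgeR), so it was higher in all 4 Flint lines, with a narrow gap between L017 and P040.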

How the data were processed

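Leaf RNA depleted of ribosomal RNA was sequenced as single-end reads of 100 bp. The deposited table holds raw read counts per gene, which the authors made by aligning reads with TopHat2 2.0.3 to B73 RefGen_v3, per their processing notes, and the table keeps 17905 genes, all with at least 2 CPM in at least 2 libraries (checked). How reads shared by similar genes were counted is not given in the sources used here, nor is strand use.

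Counts were scaled with edgeR 4.0.16 (TMM, R 4.3.3) to CPM, and the rule took log2(CPM + 1). Tests were edgeR quasi-likelihood F tests on raw counts of all 47 libraries with Benjamini-Hochberg adjustment over all 17905 genes and a threshold of 0.05. The models held a mean per line and heat level (lines), line and heat level with pool or tolerance class by heat level (pool, tolerance), or line and heat level (level). The rule and the tests of lines, pool, tolerance and level were run on simulated counts with known changes. For the rule, these counts had the same profile at all heat levels except in the lowered genes. They did not hold the shift of the most abundant genes. DESeq2 1.42.0 was an alternative. Pools and tolerance classes come from the study's methods. Replicate numbers come from the labels, and nothing says they mark separate sowings. In the line test, p-values therefore measure the spread between pools of leaf pieces. In the pool, tolerance and level tests, the residual also holds differences between lines in their heat response. The pool and tolerance tests count libraries as units, although pool and tolerance class vary only between lines. The members, gene lists and markers were chosen with earlier results of these data known. Named genes were the 12 largest falls, members with a gene symbol, an informative description or a place in a gene list, the 4 smallest p of each test that passed, and the 3 genes on each side of the limit. Alternatives were other scalings, pseudocounts, limits, filters and the block, and each line and each library at 32 or 38°C left out (except the single L017 library at 32°C). Names come from RefSeq (Zm-B73-REFERENCE-NAM-5.0), which differs from the build of the counts, so no coordinates are given, and promoter motifs were not searched. Figures were drawn with matplotlib 3.10.9.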

Additional observations from a re-analysis of the deposited data

Results flagged for a closer look

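The change between 38 and 32°C differed between the 8 inbred lines for 4 members in edgeR's quasi-likelihood test over all genes, with an adjusted p of 0.0165 for GRMZM2G111903, 0.032 for GRMZM2G013798, 0.0434 for GRMZM5G852325 and 0.0462 for GRMZM2G027479. Under 43 alternatives, the call of GRMZM2G111903 held in 42 (adjusted p 1.66e-05 to 0.0741), that of GRMZM2G013798 in 31 (0.000168 to 0.121), that of GRMZM5G852325 in 18 (0.000381 to 0.171) and that of GRMZM2G027479 in 16 (0.00256 to 0.289).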

How the results depend on the processing

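The list of members depended on scaling and on the limit, and the size of the fall depended on scaling. Of the 100 members, 16 were chosen again with plain CPM (chosen after seeing the data), 61 with a limit of 0.2 at the milder step, 58 with a limit of 0.6, and 61 without replicate 1 or 71 without replicate 2; all other alternatives shared 69 to 100. Read on the same 100 genes, the median change was -0.19 with plain CPM, against a median of 0.82 for all genes, and -1.24 to -1.04 in every other alternative.

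Counts of members whose fall differed between lines depended on the libraries: 31 with DESeq2, 7 with a filter of 2 CPM in 10 libraries, 47 without the 3 libraries that resembled another line, 7 without the P040 32°C replicate 2 library, 1 without S058, and 2 without S067, P040 or L043. Leaving out 1 of 30 libraries at 32 or 38°C gave 1 to 43 members and 70 to 1439 genes. The highest counts came without P040 32°C replicate 1, S070 32°C replicate 2 and L012 38°C replicate 1, with more calls over all genes too. Each of these fits left 1 library at a line and heat level, so counts by library are not listed. The line test has no value within 1 replicate, where no residual degrees of freedom remain.

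For pool, 1 member passed with a mean per line and heat level, beside 1.25% of all genes, and 2 without S067, beside 3.53%. In the exact permutation over lines, unadjusted, 4 members reached the smallest p for pool, beside 4.98% of genes. For tolerance 1 did, beside 1.83%. Members whose level differed between lines numbered 36 without replicate 1, beside 31.1% of all genes, and 45 without replicate 2, beside 25.1%. They numbered 66 to 91 otherwise, beside 51.6% to 61%.

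Samples with the same replicate number were not treated as paired, since correlations of their deviations did not all exceed 0.1 (-0.20 to 0.41, median 0.14, over 253 pairs of groups, 148 of them above 0.1). With a replicate block the counts were 13 members for lines, beside 788 genes, 1 for pool, beside 111, 0 for tolerance, beside 0, and 81 for level, beside 10717.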
